A study of Mus musculus with 3 samples.

Results

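AP-1 is a family of dimeric transcription factors, and 9 of its genes were followed here in cultured mouse spleen cells: the JUN genes Jun, Junb and Jund, the FOS genes Fos, Fosb, Fosl1 and Fosl2, and the related genes Batf and Atf3. They were found by symbol among the noncontrol probes of the array, which gave 14 probes of 56599 in use, and 9 of the 25158 genes with a RefSeq symbol. Each probe is shown apart, because Junb had 3 probes and Fosb, Fosl2 and Jund had 2 each. All 14 were on each of the 3 arrays, and 0 were saturated.

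The spleen cells, from male MRL/MpJ animals 6 months old, were freed of red cells by ammonium chloride and kept in wells of 500 µL. PBS, urine from MRL/MpJ animals or urine from MRL/MpJ-Faslpr/lpr animals (called lpr urine here) was in contact with them for 3 h. MRL/MpJ-Faslpr/lpr mice lack functional Fas, a death receptor of lymphocytes, and develop a lupus-like disease. The cells themselves all came from mice with intact Fas, so that the groups differed in what was added and not in genotype. Each urine was a pool of 6 male donors aged 6 months, passed through a 0.22 µm filter, and the labelled cRNA was made from 0.05 µg of RNA. The labels speak of the spleen of a mouse. Whether 1 spleen served all wells, and the ratio of urine to medium, are not given in the sources used here. There was 1 array per condition, so none of the comparisons below could be checked against replicates or given a p-value or standard error, and treatment, well and array cannot be told apart.

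AP-1 proteins pair through a leucine zipper and grip DNA with the basic region beside it. JUN proteins pair with each other or with FOS proteins, whereas FOS proteins need a JUN partner. Fos, Fosb, Jun, Junb and Atf3 are known as immediate early genes, whose transcripts appear soon after growth factors, antigen or stress through MAP kinases and the serum response factor. BATF has no activation domain of its own and acts with JUN proteins and IRF4 in lymphocytes, and ATF3 is known as a stress-induced factor that often represses.

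The stretches before the transcription start of Fos, Jun and Fosl2 are shown because the first pair had higher signal with both urines and Fosl2 lower. They are the last 250 bases before the RefSeq start on GRCm38.p6, with the letters of searched motifs in capitals. Fos lies at chr12:85473640-85473889 on the plus strand, Jun at chr4:95052223-95052472 on the minus strand and Fosl2 at chr5:32136222-32136471 on the plus strand.
Fos: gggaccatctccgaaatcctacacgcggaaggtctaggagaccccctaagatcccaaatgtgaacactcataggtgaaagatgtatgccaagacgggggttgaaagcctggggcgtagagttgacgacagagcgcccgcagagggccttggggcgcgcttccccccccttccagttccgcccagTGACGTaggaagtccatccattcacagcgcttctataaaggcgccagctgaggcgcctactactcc
Jun: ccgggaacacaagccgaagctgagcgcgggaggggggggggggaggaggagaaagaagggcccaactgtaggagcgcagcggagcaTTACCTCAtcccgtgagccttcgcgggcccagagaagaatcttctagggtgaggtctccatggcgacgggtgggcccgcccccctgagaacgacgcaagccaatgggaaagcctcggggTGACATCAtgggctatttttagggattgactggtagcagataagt
Fosl2: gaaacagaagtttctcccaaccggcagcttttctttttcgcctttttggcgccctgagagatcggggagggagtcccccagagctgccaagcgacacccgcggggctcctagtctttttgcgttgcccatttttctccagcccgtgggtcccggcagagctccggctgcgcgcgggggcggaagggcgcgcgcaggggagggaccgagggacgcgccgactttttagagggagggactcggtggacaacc

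Motifs were searched on both strands in 32851 such promoters of 27025 symbols, and 8 of the 9 AP-1 genes had an entry, with Fosl1 the exception. The TPA response element TGACTCA, to which JUN and FOS dimers bind, stood in 4.46% of all promoters and in 0 of these 8. The full cyclic AMP response element TGACGTCA stood in 1.55% of all and in 0 of the 8. TGACATCA, a variant known from the Jun promoter, stood in 2.93% of all and in 1 of the 8, namely Jun, where it lay 45 to 38 bases before the start. The CArG box, the site of the serum response factor, was in 1.47% of all and in 0 of the 8, and the serum response element of Fos is known to lie further upstream than this window. A pair of motifs was added after the results were known. One was TGACGT, which overlaps TGACGTCA and stood in 6.47% of all promoters and in 3 of the 8: Fos (66 to 61 bases before the start), Batf (98 to 93) and Atf3 (8 to 3, on the other strand). The other was TTACCTCA, also a variant of the Jun promoter, in 0.728% of all and in Jun alone of the 8. There it lay 164 to 157 bases before the start. TGACATCA and TTACCTCA were taken from the Jun promoter, so their matches in Jun were set beforehand and are no finding. In the Fosl2 stretch none of the 6 searched motifs was found. A match describes letters only, and a missing match says nothing of the factor.

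The arrays differed in overall brightness before any gene is considered. The 75th percentile of processed signal, the brightness of a spot after background subtraction, was 157.5 intensity units with PBS, 86.6 with MRL/MpJ urine and 75.7 on the lpr urine array. Between 55.3% and 59.0% of probes were well above background by the scanner software's call. Levels below are log2 signal minus that percentile of the array, and a probe is called higher or lower if both arrays detected it well above background and its difference reached 2-fold. The E1A spike-ins, which are synthetic RNAs of set amount, hardly differed between arrays (log2 0.04 and -0.07 against PBS). Scaling by them instead would move each difference by -0.91 for MRL/MpJ urine against PBS, by -0.99 for lpr urine against PBS and by -0.08 between the urines. In bulk RNA, fewer cells of a type and less RNA per cell cannot be told apart. Labelling began from 0.05 µg of RNA in each group, so the spike-ins measure neither of these. Repeated spots of 1 probe within arrays would give a log2 difference an SD of 0.372 below 32 intensity units, 0.122 from 32 to 256 and 0.0522 above 256. This spread leaves out noise between arrays and wells.

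The first comparison set MRL/MpJ urine against PBS. Of the 14 AP-1 probes, 11 were measured on both arrays. Of these, 6 reached 2-fold higher with urine, 3 were lower and 2 stayed within 2-fold. Over all 30286 probes measured on both arrays, 15.5% were higher and 12.4% were lower. The median log2 difference was 2.18 for the 11 AP-1 probes and 0.06 for all. By gene, with 1 probe each, 5 of 8 measured genes were higher, 2 were lower and 1 stayed within 2-fold, against 14.9% higher and 12.2% lower of all genes. Among equally detected probes of a gene, the one with the highest mean signal over all arrays was taken, which can favour probes bright with urine. Jund counted as higher through this choice, as its other probe was at -0.55 in log2. Of the remaining 3 probes, 2 were measured with urine alone and 1 with PBS alone, against 2.92% and 5.47% of all probes.

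With lpr urine against PBS, 6 of 11 AP-1 probes were at least 2-fold higher, 1 was lower and 4 stayed within 2-fold, against 16.9% higher and 13.2% lower of all 29743 probes. The median was 2.44 for the AP-1 probes and 0.08 for all. By gene, 5 of 8 were higher and 1 lower, against 16.2% and 13.3% of all genes. Jund again counted as higher through the choice of probe, with its other probe at -0.52. Another 2 AP-1 probes were measured with lpr urine alone and 1 with PBS alone, against 2.73% and 6.43% of all probes. Both comparisons share the PBS array, so their likeness is no second observation of the same difference. Relative to the share of all probes, higher calls were frequent among the AP-1 probes, and lower calls were too few to read. The AP-1 genes were chosen with earlier results of these data known, so this frequency is a description and no independent evidence.

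**Figure D1:**
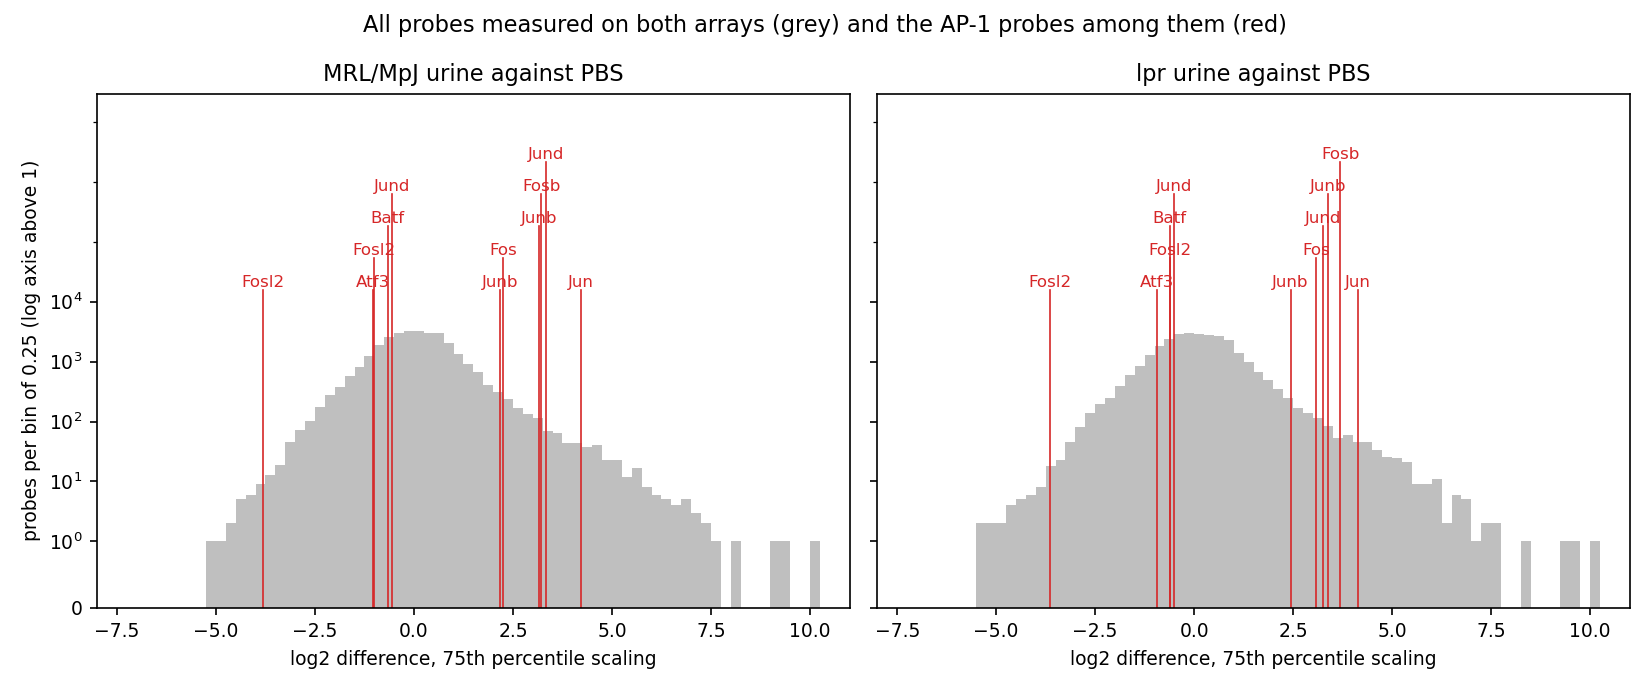
Log2 difference of all probes measured on both arrays (grey bars, probes per bin of 0.25, log axis above 1) for MRL/MpJ urine (left) and lpr urine (right) against PBS. The red lines mark the 11 AP-1 probes measured on both arrays, with heights set only for legibility; Jun stands at 4.22 and 4.14 on the right flank and the lower Fosl2 probe at -3.82 and -3.64 on the left.

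Among the JUN genes, Jun had the largest difference of a probe measured on both arrays. Jun encodes the founding member of the family, which can pair with itself. Its probe (A_55_P2158990, chr4:94716928-94716987, mm9) read 1369 intensity units with PBS, 14014 with MRL/MpJ urine and 11599 on the lpr urine array. Both urine arrays stood far above PBS, 18.6-fold (log2 4.22) and 17.6-fold (4.14) after scaling. Among all probes measured on both arrays, Jun ranked 194 from the highest with MRL/MpJ urine and 214 on the lpr urine array.

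Junb, whose product competes with JUN for partners and is abundant in activated lymphocytes, was higher on each of its probes. Probe A_51_P159194 (chr8:87500843-87500902, mm9) read 13443 with PBS, 33406 with MRL/MpJ urine and 34952 on the lpr urine array, a difference of 4.52-fold (log2 2.18) and 5.41-fold (2.44). Probe A_55_P2011106 (chr8:87501881-87501940), which lies further upstream in the gene, read 211, 1030 and 1064.5 in the same order, or 8.88-fold (3.15) and 10.5-fold (3.39). The direction was shared, and the size differed by 0.97 on the log2 scale between these probes for MRL/MpJ urine. The remaining Junb probe, A_55_P2731021 (chr8:87496635-87496694), is designed to the transcript AK044253. It was not well above background with PBS, at 0.986, and read 213 and 209 with the urines. The bound is at least 86.8-fold higher for MRL/MpJ urine and at least 97.3-fold higher for lpr urine, or 46.3-fold and 49.0-fold by spike-in scaling. With normexp background correction, an alternative that adds an offset of 50 and so draws dim probes towards 0, the log2 differences were 2.83 and 2.91, well under these bounds. Such bounds set the urine signal against the lowest signal well above background on the other array.

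Jund, the JUN gene that is known for steady expression in resting cells, gave opposite readings on a pair of probes whose ends lie 74 bp apart on the plus strand. Probe A_55_P2892246 (chr8:73224302-73224361, mm9) read 6936 with PBS, 38258 with MRL/MpJ urine and 32019 on the lpr urine array, which was 10.0-fold (log2 3.33) and 9.61-fold (3.26) higher. Probe A_51_P357744 (chr8:73224436-73224495) read 6283, 2360 and 2112, which was 1.46-fold lower with MRL/MpJ urine (-0.55) and -0.52 in log2 with lpr urine, both inside the 2-fold limit. The signals of the upstream probe were higher with both urines and those of the downstream probe were lower. The array annotation assigns these probes to different RefSeq transcripts. They disagreed by 3.88 in log2 for MRL/MpJ urine, so that a direction for Jund as a gene depends on the probe. Of 6530 genes with several probes measured on both arrays, 521 (7.98%) likewise had one at least 2-fold higher and another below 0.

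**Figure D2:**
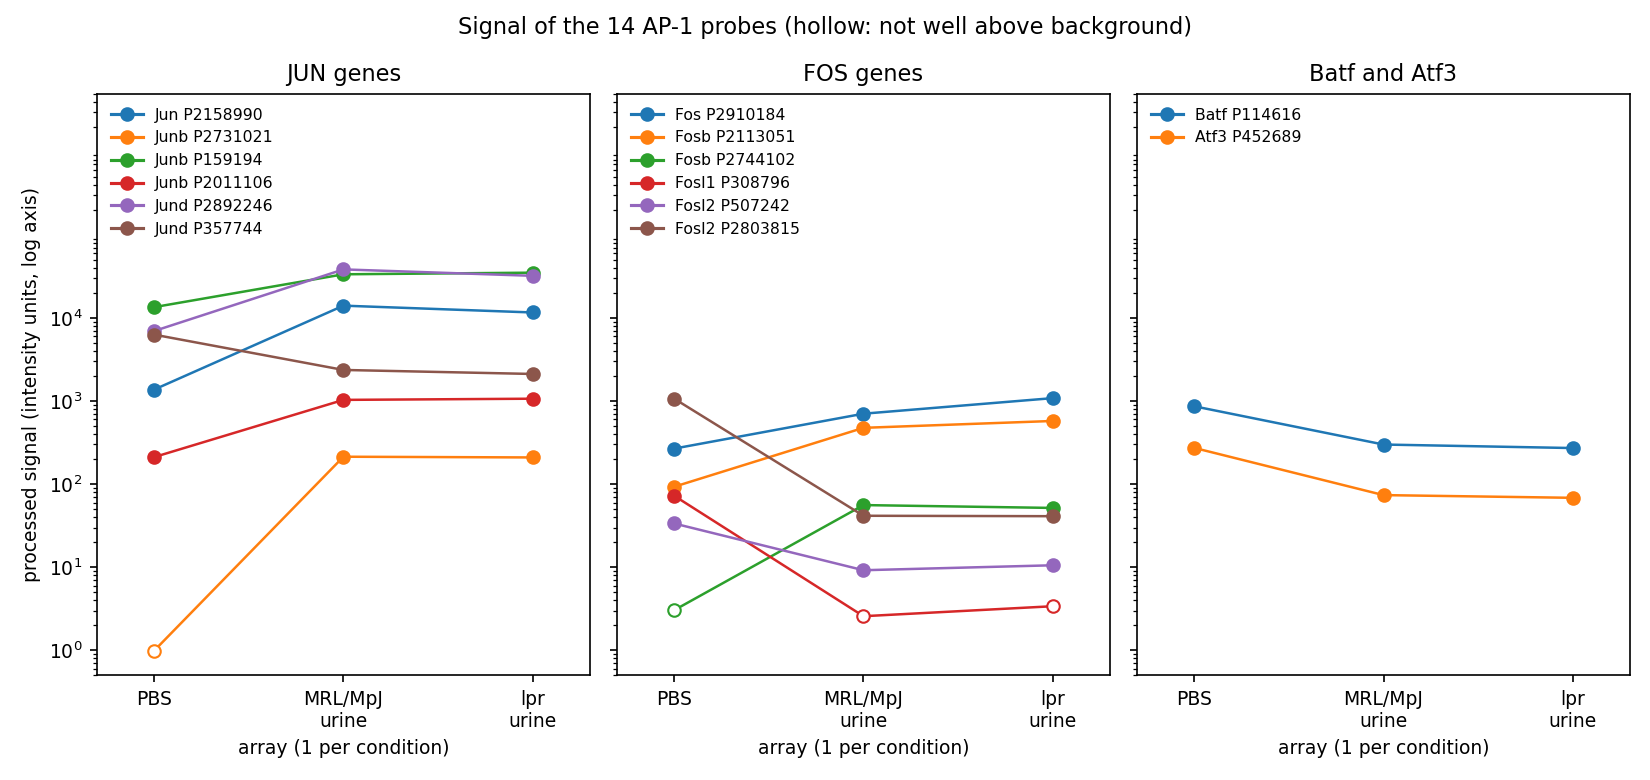
Processed signal (intensity units, log axis) of the 14 AP-1 probes on the PBS, MRL/MpJ urine and lpr urine arrays, 1 array each, with hollow points where the probe was not well above background. Lines join the values of 1 probe; Jun goes from 1369 to 14014 and 11599, Fosl2 probe A_55_P2803815 from 1068 to 41.6 and 41.1, and the Jund probes part in opposite directions.

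The last 30 of the 60 bases are shown for the probes of Jund, Junb, Fosb and Fosl2, the genes with several probes, and for 1 probe near Junb, as the array files list them, 5′ to 3′ and with no letters marked. In the Jund pair, the probe with higher signal has 16 A among these 30 bases and the other has 3. In the Fosb pair, the probe measured with urine alone has 17 A and the other, also higher with both urines, has 4. The Junb probes, all higher with urine, have 4, 10 and 10 A in the order shown, and the ENSMUST00000209372.1 probe, also higher, has 6. The lower Fosl2 probes have 6 and 2. Of the genes with a single probe, Jun has 8 A, Fos 10, Fosl1 10, Batf 11 and Atf3 13. The count of A was not planned, and it was not set beside that of all probes. Whether it bears on the differences was not tested.
Jund A_55_P2892246: gttttttaaagaaacgggaagaagaaaaaa
Jund A_51_P357744: aatccttggttcgccggttttgtgttttca
Junb A_51_P159194: ttgtgtgtgtgtgtttgactttttattgaa
Junb A_55_P2011106: tggacgacctgcacaagatgaaccacgtga
Junb A_55_P2731021: agcttgaaatctgtgaataagcctgttaat
ENSMUST00000209372.1 A_55_P2727155: gccgtcagggcaactcctgccaggaagggc
Fosb A_55_P2113051: ccctcacccaggctgtatttgtgatttttt
Fosb A_55_P2744102: caaaacaaacaaacccgcaaggaacaagga
Fosl2 A_51_P507242: gctagagttcatgaaggtggctcacggccc
Fosl2 A_55_P2803815: attttccctcgggtttgttctcgttttatg

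The AK044253 probe of Junb lies 4208 bp downstream of probe A_51_P159194 on the same strand, and other probes in this stretch were examined after its value was seen. A probe for the transcript ENSMUST00000209372.1, 661 bp downstream (chr8:87500182-87500241, mm9), read 19.8 with PBS, 1844 with MRL/MpJ urine and 1738 on the lpr urine array, or 169-fold (log2 7.41) and 183-fold (7.51) higher. Rnaseh2a, the next gene symbol with a probe on that strand, encodes a ribonuclease H subunit. Its probe 9267 bp downstream read 22.6, 1881 and 1661 (151-fold and 153-fold higher), and its probe at 10962 bp read 50.6, 378 and 345 (13.6-fold and 14.2-fold). On the Junb strand, these 3 probes and the AK044253 probe thus all read higher with both urines. On the opposite strand, Prdx2, a peroxiredoxin gene, has probes at 2690 bp and 6456 bp, on either side of the AK044253 probe. The nearer Prdx2 probe read 756, 832 and 767 (log2 1.00 and 1.08, and 0.09 under spike-in scaling with either urine). The farther one read 224, 150 and 150 (0.29 and 0.48, and -0.62 and -0.51 under spike-in scaling). Upstream of Junb the strands did not part in this way. On the opposite strand, A_30_P01018345 read 26.5, 385 and 564 (4.72 and 5.47). A_30_P01019354 was measured with the urines alone (35.2 and 46.5). On the Junb strand, A_30_P01030362 read 36.4, 29.9 and 26.9 (0.58 and 0.62). A_30_P01022563 was measured with the urines alone (14.2 and 13.1). Whether the downstream probes read transcripts that begin at Junb was not tested.

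**Figure D3:**
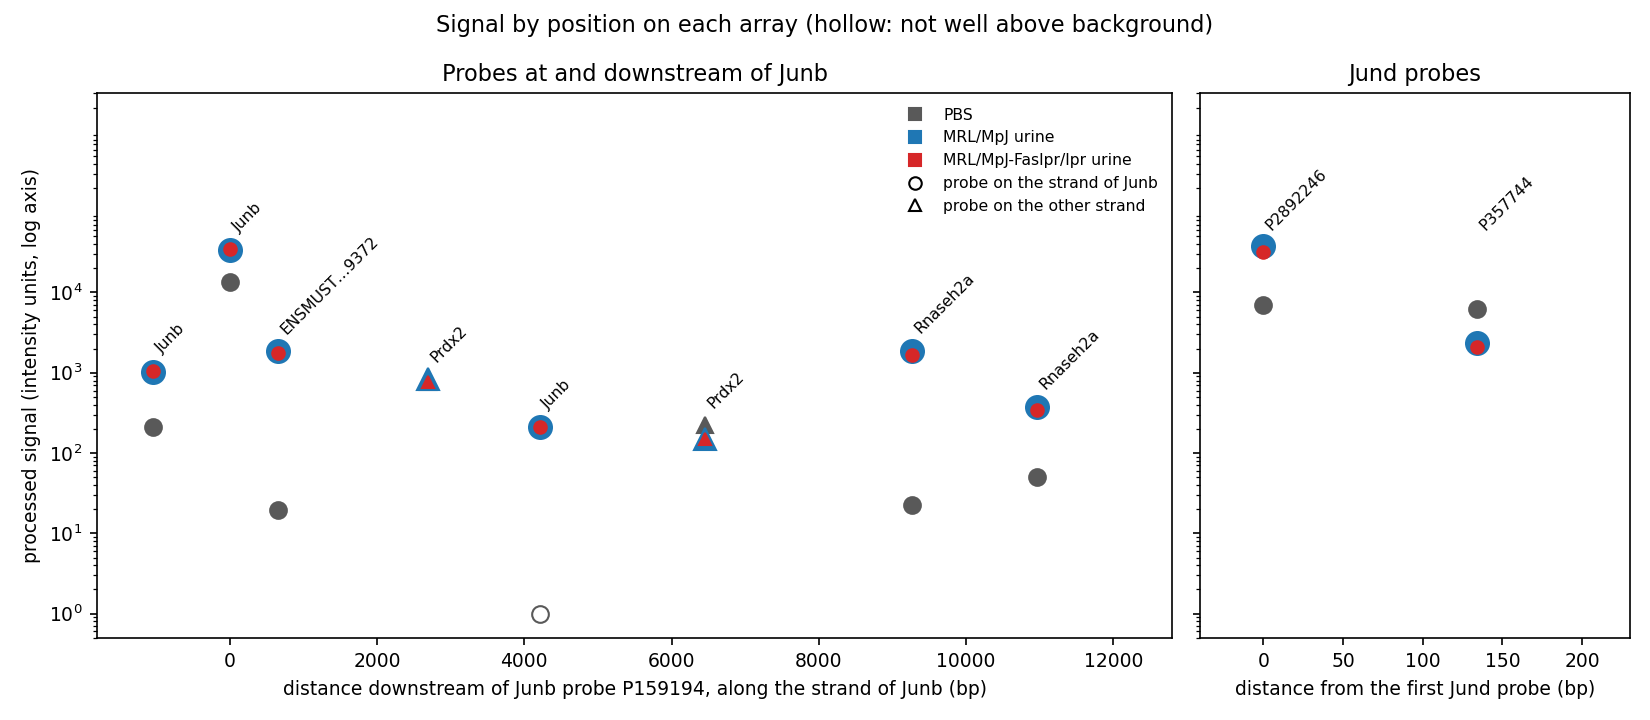
Processed signal (intensity units, log axis) against position, with circles for probes on the Junb strand and triangles for those on the other strand (left, distance downstream of Junb probe A_51_P159194 in bp), and for the Jund probes (right). Colours give the array, with the larger MRL/MpJ urine points behind those of lpr urine, and hollow points were not well above background. The Rnaseh2a probe at 9267 bp reads 22.6 with PBS and 1881 with MRL/MpJ urine, while the Prdx2 probe at 2690 bp reads 756 and 832. Signals are unscaled, and after scaling that Prdx2 probe was called higher (log2 1.00).

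Within 12 kb of the AP-1 probes there were 19 probes with other names, also gathered after values were seen. With each urine against PBS, 8 of them were at least 2-fold higher, 0 were lower, 7 stayed within 2-fold and 4 were measured with urine alone. Over all probes, 15.5% of those measured on both arrays were higher for MRL/MpJ urine and 16.9% for lpr urine, and 2.92% and 2.73% of all were measured with that urine alone. The 19 were on the strand of the AP-1 gene in 10 cases (3 higher, 4 within 2-fold, 3 with urine alone) and on the other strand in 9 (5 higher, 3 within 2-fold, 1 with urine alone). Gm11175, on the strand opposite to Jund, read 46.7 with PBS, 239 with MRL/MpJ urine and 211 on the lpr urine array (log2 3.22 and 3.23). BC050256, 3871 bp upstream of the Fos probe on its strand, was not well above background with PBS (1.09) and read 23.4 and 38.9 with the urines. Fam71a, 8084 bp downstream of Atf3 on its strand, was not well above background with PBS (2.47) and read 14.4 and 16.0. Several of these probes share a locus, and they are not separate observations.

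Of the FOS genes, Fos and Fosb were higher with both urines. Fos, the prototype immediate early gene, read 267 intensity units with PBS, 702 with MRL/MpJ urine and 1082 on the lpr urine array (probe A_55_P2910184, chr12:86818118-86818177, mm9). That was 4.78-fold (log2 2.26) and 8.43-fold (3.08) higher than PBS, with lpr urine the highest of the 3 arrays. Fosb, a close relative of Fos, read 92.8, 475 and 574 on probe A_55_P2113051 (chr7:19888168-19888227), or 9.31-fold (3.22) and 12.9-fold (3.69) higher. Its other probe, A_55_P2744102 (chr7:19890146-19890205), was not well above background with PBS (3.03) and read 55.9 and 51.6, which was at least 22.7-fold and at least 24.0-fold higher (12.1-fold for either urine by spike-in scaling). With normexp its log2 differences were 1.496 and 1.548, well under these bounds. Both Fosb probes thus had their lowest signal with PBS.

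Fosl1 and Fosl2 encode FRA-1 and FRA-2, FOS relatives without the strong activation domain of FOS, and both read highest with PBS. Fosl1 (A_51_P308796, chr19:5455496-5455555, mm9) read 72.5 with PBS, while its signals with MRL/MpJ urine (2.57) and lpr urine (3.39) were not well above background. It was at least 8.94-fold lower and at least 7.87-fold lower, or 16.8-fold and 15.6-fold by spike-in scaling. With normexp its log2 differences were -0.56 and -0.46, inside 2-fold, so that the size of the Fosl1 difference depends on the background correction. Fosl2 probe A_55_P2803815 (chr5:32460076-32460135) read 1068 with PBS, 41.6 with MRL/MpJ urine and 41.1 on the lpr urine array. It was 14.1-fold lower (log2 -3.82) and 12.5-fold lower (-3.64), and ranked 23 and 32 from the lowest of all probes measured on both arrays. Fosl2 probe A_51_P507242 (chr5:32455088-32455147), further upstream in the gene, read 33.6, 9.19 and 10.5, or 2.01-fold lower (-1.01) with MRL/MpJ urine and -0.61 in log2 with lpr urine. The Fosl2 probes had the same sign but differed by 2.81 in log2 for MRL/MpJ urine. With normexp the upstream probe turned to 0.12 for MRL/MpJ urine and 0.25 for lpr urine, so that only the downstream probe kept its direction.

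Batf and Atf3 also had their highest signal with PBS. Batf, which is needed for several helper T cell programmes and for class switching in B cells, read 864 with PBS, 299 with MRL/MpJ urine and 271 on the lpr urine array (A_51_P114616, chr12:87049872-87049929, mm9). Its log2 differences of -0.67 and -0.61 stayed within 2-fold. Atf3 (A_52_P452689, chr1:192994547-192994606) read 273, 73.7 and 68.3, or 2.04-fold lower (-1.03) with MRL/MpJ urine and -0.94 in log2 with lpr urine. Atf3 lay close to the 2-fold limit and Batf further inside it, and on which side each lay depended on the scale. Under spike-in scaling Batf was -1.57 and -1.60 and Atf3 was -1.93 with either urine.

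The direction of the larger differences did not turn with the scaling. Under spike-in scaling, Jun was still higher by 3.31 and 3.15 in log2, Fos by 1.35 and 2.09, Fosb by 2.31 and 2.70, and the Junb probes by 1.27 and 1.45 and by 2.24 and 2.40, for MRL/MpJ and lpr urine in turn. The Jund probes were 2.42 and 2.27 for A_55_P2892246 and -1.46 and -1.51 for A_51_P357744. The Fosl2 probes were -4.73 and -4.63 for A_55_P2803815 and -1.91 and -1.60 for A_51_P507242. Over all probes, spike-in scaling left 4.95% higher and 43.5% lower for MRL/MpJ urine, and 4.99% and 46.5% for lpr urine. The share of calls that were higher went from 55.5% to 10.2% with MRL/MpJ urine and from 56.2% to 9.70% with lpr urine.

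**Figure D4:**
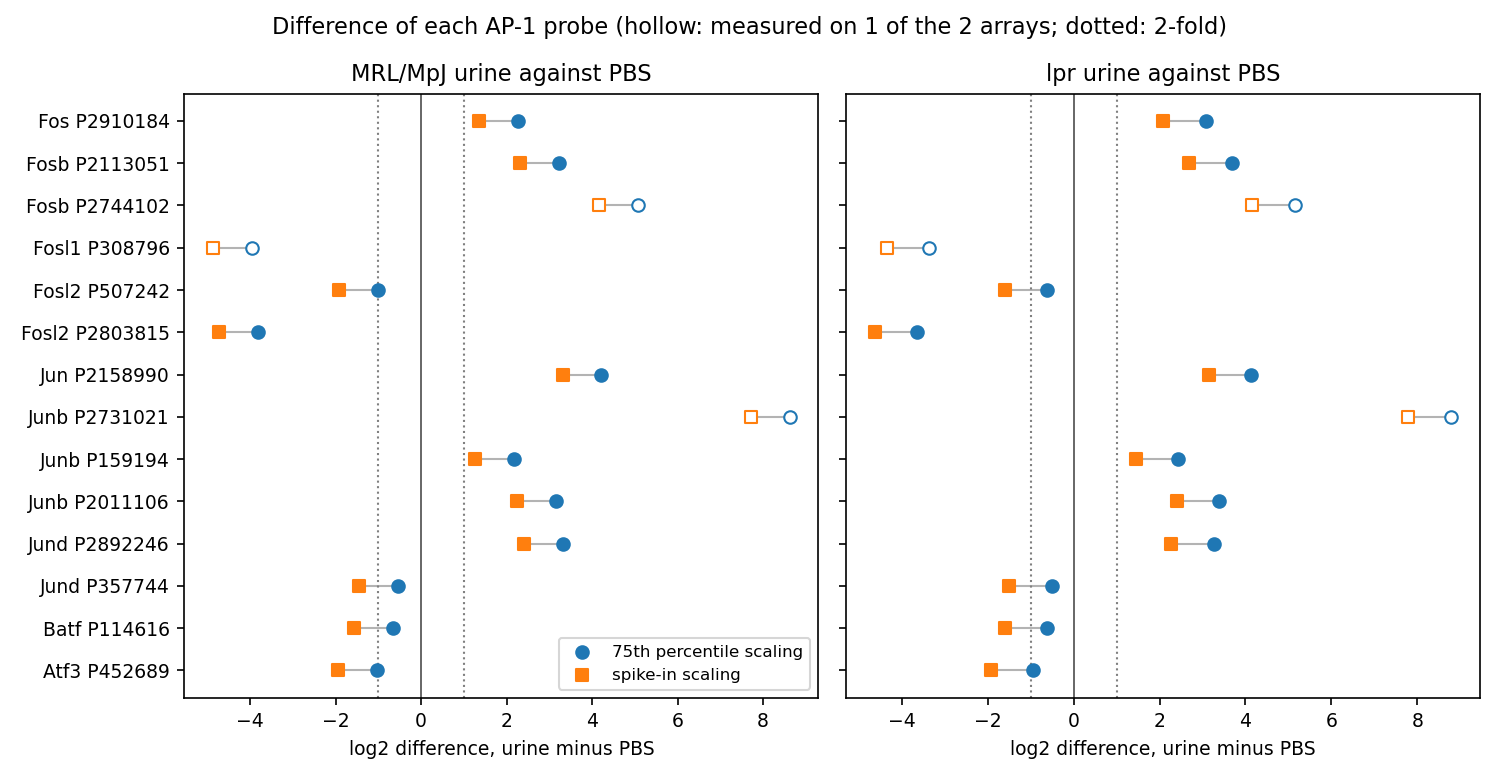
Log2 difference, urine minus PBS, of each AP-1 probe under 75th percentile scaling (circles) and spike-in scaling (squares), with hollow points where the probe was well above background on 1 of the arrays and dotted lines at 2-fold. Every probe shifts to the left under spike-in scaling, and Jun, Fos, Fosb, the Junb probes and Jund A_55_P2892246 stay beyond 2-fold higher.

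Between the urines, no AP-1 probe passed 2-fold. Of 13 probes measured on both urine arrays, 0 were higher and 0 lower with lpr urine, against 0.294% higher and 0.0719% lower of all 30608 probes, and by gene 0 of 8, against 0.239% and 0.0545%. Fosl1 was well above background on neither array. The median was 0.17 for the AP-1 probes and 0.01 for all. Fos had the largest difference, 1.76-fold higher with lpr urine (log2 0.82, and between 0.62 and 0.82 over the alternatives), which ranked 205 from the highest of all probes. Fosb followed with 0.47 on probe A_55_P2113051 and 0.08 on its other probe. Jun differed by -0.08, Junb A_51_P159194 by 0.26, and Jund A_55_P2892246 by -0.06. At the signals of Fos and of Fosb A_55_P2113051, repeated spots would give an SD of 0.0522, but with 1 array for each urine no replicate shows how wells or pools of the same urine differ.

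The genes whose pair of differences lay nearest to those of Jun, Fos and Fosl2 were sought among 14128 genes measured on all 3 arrays, by Euclidean distance over the log2 differences of the urines against PBS. Nearest to Jun were 1700067K01Rik (4.19 and 4.15, distance 0.03), Mest (4.35 and 4.16, distance 0.13) and Pnma1 (4.16 and 4.01, distance 0.14). Nearest to Fos were the neutrophil chemokine gene Cxcl2 (2.17 and 3.02, distance 0.10), Icam5 (2.24 and 2.93, distance 0.15) and Efnb2, which encodes a membrane-bound ephrin (2.46 and 3.08, distance 0.21). Nearest to Fosl2 were the hexokinase gene Hk2 (-3.85 and -3.36, distance 0.29), the lectin gene Clec2d (-3.55 and -3.95, distance 0.41) and Fyco1 (-3.44 and -3.81, distance 0.42). With 3 arrays, such nearness describes a pair of numbers per gene.

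Among partners of BATF and JUN and related bZIP factors, lower calls outnumbered higher ones. Of 24 genes in this list, the arrays of MRL/MpJ urine and PBS both measured 23, of which 4 were 2-fold or more higher, 8 were lower and 11 stayed within 2-fold. Over all genes measured on both arrays, 14.9% were higher and 12.2% lower, so that the higher count is near the share of all genes. The list's median was -0.67, beside 0.02 for all genes (-1.58 under spike-in scaling). With lpr urine 3 were higher and 8 lower of 23, against 16.2% and 13.3% of all genes, with a median of -0.70 (-1.69 under spike-in scaling). Irf4 and Irf8 stand in this list as partners of BATF on composite elements and are not bZIP factors. Irf4 read 3070 with PBS, 183 with MRL/MpJ urine and 166 on the lpr urine array. Its log2 differences were -3.21 and -3.15, and -2.16 and -2.47 on its other probe. Maff, a small MAF protein gene, read 342, 22.3 and 29.1 (-3.07 and -2.50). Nfil3, a bZIP repressor needed for NK cell development, read 776, 73.0 and 75.5 (-2.55 and -2.30). In the other direction, Ddit3, which encodes the stress factor CHOP, read 381, 2504 and 1829 (3.58 and 3.32), but differed by -1.24 and -1.27 on its other probe. The BATF relatives were split: Batf3, a factor of cross-presenting dendritic cells, read 14.7, 38.4 and 30.0 (2.24 and 2.08), and Batf2 was well above background with PBS alone (10.6, against 4.15 and 4.96). Jdp2, a repressive partner of JUN, read 209, 44.7 and 37.5 (-1.36 and -1.42).

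The kinases and factors that act upstream of AP-1 mostly stayed within 2-fold. Of 29 MAP kinase, SRF and ternary complex factor genes, all measured, 1 was higher, 2 were lower and 26 stayed within 2-fold with MRL/MpJ urine (median -0.16), where 14.9% of all genes were higher and 12.2% lower. With lpr urine 1 was higher, 1 was lower and 27 stayed (median -0.17), against 16.2% and 13.3% of all genes. Under spike-in scaling the medians were -1.06 and -1.16, and 17 of the 29 were at least 2-fold lower with either urine, beside 43.5% and 46.5% lower of all probes. These last shares count probes, whereas the 17 of 29 counts genes by 1 probe each. Map2k6, a kinase of p38, read 49.6 with PBS, 90.1 with MRL/MpJ urine and 83.0 on the lpr urine array (1.73 and 1.80, and 0.79 and 1.02 on its other probe). Map3k8, a kinase upstream of ERK, read 334, 58.8 and 59.6 (-1.65 and -1.43, and -1.52 and -1.20 on its other probe). Braf read 774, 198 and 202 (-1.11 and -0.88), while its 3 other probes lay between -0.16 and 0.07 with MRL/MpJ urine. Srf read 438, 454 and 413 (0.92 and 0.97), Elk1 84709, 74561 and 67460 (0.68 and 0.73), and the JNK1 gene Mapk8 236, 213 and 203 (0.72 and 0.84). On their chosen probes, other members lay as far below 0, of which 4 are named after their values were seen. They are the JNK2 gene Mapk9 (-0.94 and -0.90), Elk4 (-0.90 and -0.93), Map2k3 (-0.93 and -0.89) and Map2k4 (-0.68 and -0.65). With MRL/MpJ urine their other probes lay nearer 0: Mapk9 -0.48, Elk4 -0.40 to -0.30, Map2k3 -0.47 to -0.19 and Map2k4 -0.55. Other probes of Elk1 (0.53) and Mapk8 (0.25 to 1.00) were above 0.

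Textbook targets of AP-1 included higher and lower genes. Of 28 genes, 18 were measured on both arrays with MRL/MpJ urine and PBS, of which 4 were higher, 5 lower and 9 within 2-fold, with a median of -0.41 (-1.31 under spike-in scaling). The shares of all genes were 14.9% higher and 12.2% lower. With lpr urine 19 were measured on both arrays, of which 4 were higher, 7 lower and 8 within 2-fold, with a median of -0.53 (-1.53 under spike-in scaling), against 16.2% and 13.3% of all genes. Hbegf, a ligand of the EGF receptor, read 11.9 with PBS, 189 with MRL/MpJ urine and 172 on the lpr urine array, or 28.7-fold and 30.0-fold higher (4.85 and 4.91). Plau, the urokinase gene, read 110, 7.33 and 5.87 (-3.04 and -3.17). Ctla4, an inhibitory receptor of T cells, read 192, 22.4 and 13.4 (-2.24 and -2.79). Odc1, the first enzyme of polyamine synthesis, read 4651, 438 and 354 (-2.55 and -2.66, and -0.87 and -1.04 on its other probe). Between the urines, 0 genes of the 3 lists passed 2-fold.

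**Figure D5:**
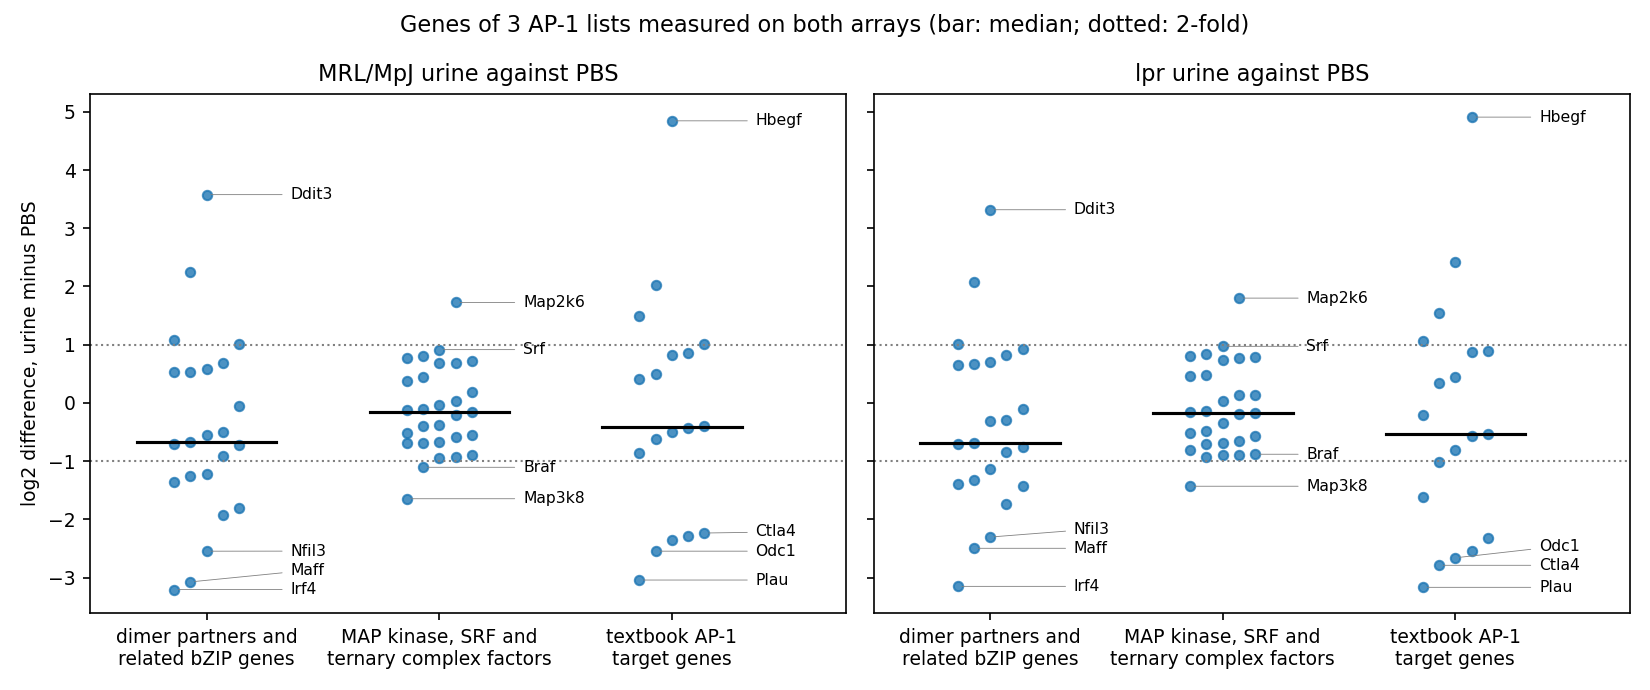
Log2 difference, urine minus PBS, of the genes of 3 lists measured on both arrays, 1 point per gene at its 75th percentile scaled value, with the list's median as a bar and dotted lines at 2-fold. The MAP kinase list lies mostly between the dotted lines. The partner and bZIP list and the targets spread from -3.21 (Irf4) to 4.85 (Hbegf) with MRL/MpJ urine.

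Markers of splenic cell types were present as labelled, with all 5 B cell, all 5 T cell and all 5 neutrophil markers well above background on each array, and 1 of 5 urinary epithelium markers. All 3 NK cell and all 5 monocyte and macrophage markers, 4 of 5 dendritic cell, 4 of 5 erythroid and 1 to 2 of 5 endothelial and stromal markers were measured as well. The summed scaled signal of the B cell markers was 214 with PBS, 417 with MRL/MpJ urine and 393 on the lpr urine array. That of the T cell markers was 129, 137 and 145. The monocyte and macrophage markers summed to 14.1, 21.9 and 24.0, and the neutrophil markers to 266, 455 and 478. Median log2 differences of these lists were 1.07 and 0.99 for B cells, 0.14 and 0.22 for T cells, 0.83 and 0.88 for monocytes and macrophages and 0.76 and 0.90 for neutrophils. Under spike-in scaling they were 0.16 and -0.00, -0.77 and -0.77, -0.08 and -0.11, and -0.14 and -0.09. The part of cell composition in the AP-1 differences was not tested.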

How the data were processed

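RNA of cultured spleen cells was read on 3 single-colour (Cy3) Agilent arrays of design 074809, 1 per condition, all on 1 slide and in 1 scan per the file headers. The authors extracted signals with Agilent Feature Extraction 12.0.3.1, per the submitters' processing notes. The deposited values are intensity, in brightness units: a processed signal from which the software subtracted background within the array, per the file headers, and the mean spot and local background signals used for the normexp alternative. No scaling between arrays is recorded there.

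Of 59305 noncontrol spots with 56605 probes, 6 probes with only flagged spots on an array were left out. Spots of 1 probe were averaged. The level was log2 processed signal minus the 75th percentile of the array. Calls needed the software's well-above-background flag on both arrays and 2-fold. With 1 array per group no test was made. Differences and calls were tested on simulated data in which few probes differed, all of them bright. That setting does not bear on dim probes or on the choice of scaling. Alternatives were scaling by the median, by 8 E1A spike-in probes, by the 75th percentile of detected probes, by quantiles or not at all, normexp background correction (offset 50, limma 3.58.1 in R 4.3.3), folds of 1.5 and 3, the other detection flag, no filter, and 1 probe per gene. Other calculations used Python 3.11.15 and pandas 2.3.3.

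All probes of the 9 genes are named, with up to 4 genes of each list by largest difference, and Batf2, Batf3, Jdp2, Srf, Elk1 and Mapk8. Where genes are counted by 1 probe, it is the probe well above background on most arrays and, among ties, with the highest mean signal over all arrays. The urine arrays enter that mean, so the choice is not independent of the differences. The members, lists and motifs were chosen with earlier results of these data known. Probe coordinates are those of the array files (mm9), 1-based, and promoters are from RefSeq (GRCm38.p6). Coordinates of these builds were not mixed. Intervals for counting do not apply to intensity values, and the number of arrays limits the precision.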

Additional observations from a re-analysis of the deposited data

How the results depend on the processing

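No paired analysis was possible because each condition had 1 array. The counts of AP-1 probes at least 2-fold higher, 6 with each urine against PBS, stayed within 1.5 times of that number under every alternative tried, and 15 of 16 called probe differences kept their direction in all of them. The exception was Fosl2 probe A_51_P507242 with MRL/MpJ urine, at 0.12 with normexp background correction. With lpr urine, where it was within 2-fold (-0.61), it was 0.25. Counts of lower AP-1 probes depended on the setting. With MRL/MpJ urine (3 lower) they were 5 under spike-in scaling or no scaling, and 1 with the 75th percentile of detected probes, with normexp or at 3-fold. With lpr urine (1 lower) they were 4 under median scaling or at 1.5-fold, 5 under spike-in scaling or no scaling, and 2 with the other detection flag or no filter. Between the urines, 1 probe was higher at 1.5-fold, against 0.

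The list counts were recomputed under alternatives added after the data were seen. In the partner and bZIP list, higher genes with MRL/MpJ urine (4) were 2 under median, spike-in or no scaling and 1 with normexp. Lower genes (8) were 14 under spike-in or no scaling. With lpr urine, higher genes (3) were 1 with normexp and lower genes (8) were 15 under spike-in or no scaling. In the MAP kinase list, higher genes (1 with each urine) were 0 under spike-in or no scaling and 2 with the 75th percentile of detected probes or quantiles. Lower genes with MRL/MpJ urine (2) were 8 under median, 17 under spike-in and 15 under no scaling, and 1 with the 75th percentile of detected probes. With lpr urine (1) they were 9, 17 and 18, and 4 with normexp. Among targets, higher genes with MRL/MpJ urine (4) were 2 under spike-in or no scaling and with normexp, and lower genes (5) were 10 under spike-in or no scaling. With lpr urine, higher genes (4) were 2 and lower genes (7) were 11 under spike-in or no scaling, and lower genes were 4 with normexp. The share of calls over all probes that were higher, 55.5% with MRL/MpJ urine and 56.2% for lpr urine, was 29.9% and 30.0% under median scaling, 10.2% and 9.70% under spike-in scaling and 45.2% and 43.2% with normexp. The cause of these shifts was not tested.

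Probes near background have uncertain folds: the lowest signals well above background were 4.47, 4.46 and 4.43 on the PBS, MRL/MpJ urine and lpr urine arrays. The bounds for Fosb A_55_P2744102, Fosl1 and Junb A_55_P2731021 rest on those signals and were not reached with normexp.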
